A study of Rattus norvegicus with 8 samples.

Results

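The genes described here encode 41 plasma proteins of complement and coagulation that are made mainly in the liver, 19 counted with complement and 22 with coagulation. Serping1 and Vtn, which act in both systems, were counted with coagulation. The genes were taken from a list, and each was read at the probe set with the highest mean among those that carry its symbol alone and whose highest and lowest values over the 8 rats lie at least 0.05 apart (log2); the distance between the highest and the lowest value is called the span. By this rule 21 of the 41 genes were measured, 10 of complement and 11 of coagulation, out of 2808 such genes among the 14217 genes that the array names. The livers came from male Wistar rats aged 8 weeks, 4 fed the HP diet (1.2% phosphorus) and 4 fed the control diet (0.3% phosphorus) over 24 days. Each rat had 1 array, and neither group carried a genetic change or received a drug. Values are on a log2 scale, and each difference is the mean of the HP diet-fed rats minus the mean of the control rats.

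Complement is a chain of plasma proteases that marks and opens foreign cells. It starts from antibody (C1r, C1s), from sugars (the mannose-binding lectins with Masp1 and Masp2) or on surfaces (Cfb), meets at C3 and ends in the membrane pore of C5 to C9. Coagulation is a second chain that ends when thrombin (F2) turns fibrinogen into fibrin, and plasmin, made from Plg, dissolves the clot. Hepatocytes secrete most of these proteins, and several of them belong to the acute phase response, in which interleukin 6 acts through STAT3 and C/EBP factors.

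The HP diet went with small differences in these genes. C4bpb, the beta chain of C4b-binding protein, and Klkb1, plasma prekallikrein, were called higher in HP diet-fed rats by rank products, by 0.18 and 0.24 (log2), or 1.13-fold and 1.18-fold, and no gene of the 41 was called lower. Rank products, a rank test over the 16 differences between an HP and a control array at an FDR under 0.05, called 349 probe sets higher and 501 lower in all, which is 8.4% and 12.1% of the 4155 probe sets with a span of at least 0.05, and 1.12% and 1.61% of all 31042. The count of 2 higher among 21 is near that background. limma, which weighs each difference against the spread between rats, called 0 of the 4155 probe sets at an adjusted p under 0.05 (0.0%), and the smallest adjusted p among the 21 genes was 0.317. At an unadjusted p under 0.05, limma had 3 of the 21 higher (C4bpa, C4bpb and Masp2) and 2 lower (Plg and Hrg), beside 5.37% and 7.29% of the probe sets tested. These unadjusted counts depended on the scaling, the span filter and the model. With each array centred on the median of its probe sets spanning at least 0.05, they were 4 higher and 0 lower. After quantile normalization they were 3 higher and 0 lower. Without limma's trend and robust settings they were 1 higher and 0 lower, and with array weights 4 higher and 2 lower. They were 0 higher and 0 lower both without the span filter and with a span of at least 0.2, which left 10 genes.

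The 20 remaining genes give no difference in either direction. Of these, 14 were listed at nearly one value in every rat: C3, C5, C8a, C8b, C8g, C1s, F2, F9, F10, Fgg, Proc, Serpinc1, Serpinf2 and Vtn. C5 spanned 0.0401, just under the limit, and the other 13 at most 0.00047, while Serping1, just above it, spanned 0.0823. The means of the 14 lay between 11.25 and 13.92, so they are not dim: C3, on which the routes of complement meet, was at 13.92 in HP diet-fed rats and 13.92 in control rats. The gamma chain of fibrinogen (Fgg) was at 13.88 on both diets, prothrombin (F2) at 13.12, and antithrombin (Serpinc1), the main inhibitor of thrombin, at 13.45. The summary method returns such flat values where the probes of a set do not vary together, so they do not show that these transcripts were level. C2, Cfb and C4a were present only on probe sets with several symbols, and no probe set was named for F7, F11 and F13b. For Masp2, Mbl2 and Fga a brighter probe set exists that was nearly constant, at means of 10.60, 12.00 and 13.39 in HP diet-fed rats, and the values below come from the dimmer one.

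**Figure D1:**
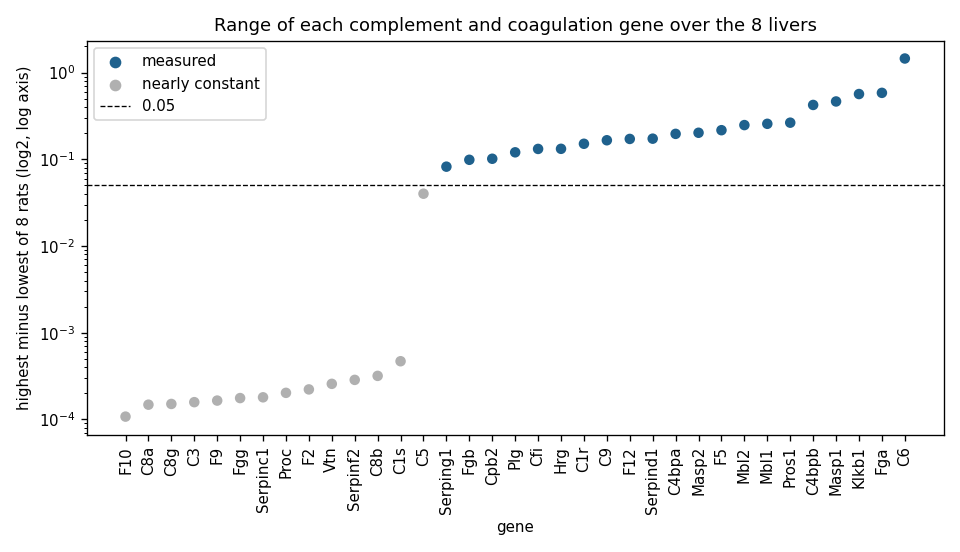
The vertical axis gives the distance between the highest and the lowest of the 8 rats (log2 units, on a log axis) for each gene with a probe set of its own, in rising order along the horizontal axis. The 21 measured genes lie above the dashed line at 0.05, from Serping1 at 0.0823 to C6 at 1.45, and C5 is the only nearly constant gene close to it.

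The bases before the start of 3 genes are shown because C4bpa and C4bpb are neighbours whose differences ran the same way, and because Klkb1 is the other gene that rank products called. C4bpa and C4bpb lie 9.512 kb apart on chromosome 13, and Klkb1 lies 5.932 kb from F11 on chromosome 16. The sequences are the 250 bases before each start in RefSeq (build GRCr8): chr13:44663472-44663721 on the minus strand for C4bpa, chr13:44683782-44684031 on the minus strand for C4bpb, and chr16:53690976-53691225 on the plus strand for Klkb1. For C4bpa and Klkb1 the start used lies inside the gene as RefSeq lists it, and which transcript it belongs to was not given. The whole Klkb1 window and part of the C4bpa window lie inside the gene. Both windows are counted with the promoters below. Capitals mark matches to TTGCNNAA, a C/EBP motif, on either strand, or to TTCNNNGAA, a STAT motif.
C4bpa: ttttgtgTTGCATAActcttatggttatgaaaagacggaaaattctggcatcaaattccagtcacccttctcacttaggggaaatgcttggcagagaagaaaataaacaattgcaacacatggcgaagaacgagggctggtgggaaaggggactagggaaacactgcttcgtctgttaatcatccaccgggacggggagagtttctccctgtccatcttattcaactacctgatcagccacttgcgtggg
C4bpb: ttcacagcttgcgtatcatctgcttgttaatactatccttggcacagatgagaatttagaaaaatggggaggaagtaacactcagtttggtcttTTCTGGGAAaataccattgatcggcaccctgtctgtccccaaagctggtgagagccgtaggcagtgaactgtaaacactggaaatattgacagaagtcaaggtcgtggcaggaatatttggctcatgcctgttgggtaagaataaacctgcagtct
Klkb1: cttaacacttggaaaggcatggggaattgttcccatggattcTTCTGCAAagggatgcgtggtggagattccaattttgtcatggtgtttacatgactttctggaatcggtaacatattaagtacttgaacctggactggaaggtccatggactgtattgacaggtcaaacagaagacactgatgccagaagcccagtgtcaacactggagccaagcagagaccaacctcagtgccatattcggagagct
The C/EBP match of C4bpa stood at positions -243 to -236 from the start, that of Klkb1 on the opposite strand at -208 to -201, and the STAT match of C4bpb at -156 to -148. RefSeq promoters were at hand for 31 of the 41 genes. The C/EBP motif was in 11 of these 31 (35.5%), against 9.22% of 33469 promoters of the same length, and the STAT motif in 7 (22.6%), against 7.67%. Among the measured genes, the promoters of Fga and Fgb held both, at -162, -144 and -242 in Fga and at -141 and -223 in Fgb. A motif of the liver factor HNF1 was in 3 (C5, F13b and Plg, 9.68%), against 0.323%, and CAAAGTNCA, a motif of the liver factor HNF4, in 1 (F9), against 1.06%. TATAAA, the TATA box, was in 1 (Fgg), against 12.9%. The C/EBP motif was in 6 of 15 measured genes (40.0%), and a match describes letters in this window only. The shares of the list count genes, while the 33469 are promoters that were not chosen for expression in liver. No test compared the shares.

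The 3 genes counted here as regulators of complement, C4bpa, C4bpb and Cfi, were measured and had higher means on the HP diet, with 1 called by rank products. Serping1, which also acts in complement but was counted with coagulation, differed by -0.01. C4bpb, which joins the alpha chains to protein S in human plasma, had values of 11.56, 11.79, 11.59 and 11.83 in HP rats 1 to 4, against 11.40, 11.50, 11.46 and 11.66 in control rats 1 to 4. Control rat 4 lay above HP rats 1 and 3, so the diets overlapped. The means were 11.69 ± 0.14 in HP diet-fed rats and 11.51 ± 0.11 in control rats (SD, n = 4 each). The difference was 0.18 (SE 0.08). This SE, like every SE given here, is limma's, which draws a gene's spread toward that of other probe sets. The difference had a rank products FDR of 0.0419 and a limma adjusted p of 0.388. Leaving out a rat other than control rat 4 took this call away: the FDR was 0.0883, 0.193, 0.0965 and 0.198 without HP rats 1 to 4, 0.0692, 0.0564 and 0.0656 without control rats 1 to 3, and 0.0136 without control rat 4. C4bpa, the alpha chain, which binds C4b and serves Cfi in cutting it, had 12.99, 13.08, 12.96 and 12.96 in HP rats, against 12.94, 12.93, 12.88 and 12.92 in control rats. Every HP rat lay above every control rat, with 0.02 between the groups. Its difference was smaller than that of the beta chain, 0.08 (SE 0.03), with an FDR of 0.0741 and an adjusted p of 0.384. Cfi, the protease that cuts C3b and C4b, differed by 0.04 (SE 0.03), and its groups overlapped.

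Without overlap between the diets, 3 of the 21 genes were higher (C4bpa, Masp2 and Cpb2) and 1 was lower (Hrg), where 3.1% and 4.07% of the probe sets tested were. The gap between the groups was small in each, 0.02 in C4bpa, 0.00075 in Masp2, 0.0015 in Cpb2 and 0.03 in Hrg.

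The lectin route gave differences in both directions. Masp2, which cleaves C4 and C2 once a lectin has bound, had 9.75, 9.85, 9.85 and 9.89 in HP rats, against 9.75, 9.74, 9.69 and 9.68 in control rats. HP rat 1 stood apart from the other HP rats, next to control rat 1. The difference was 0.12 (SE 0.05), with an unadjusted limma p of 0.0392, an adjusted p of 0.380 and a rank products FDR of 0.0528. The FDR was 0.0405 without control rat 1, and 0.0566, 0.0711 and 0.0588 without control rats 2 to 4. Without HP rats 1 to 4 it was 0.128, 0.170, 0.162 and 0.173. Masp1, the partner protease, differed by -0.09 (SE 0.10), and the lectins Mbl1 and Mbl2 by 0.05 (SE 0.07) and -0.06 (SE 0.06), all with overlapping groups. C1r, the first protease of the classical route, differed by -0.03 (SE 0.04).

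Of the 6 pore-forming proteins, only C6 and C9 were measured. C6, which joins C5b to begin the pore, varied most of all 21 genes, and mostly among control rats. It had 11.41, 11.28, 11.20 and 11.57 in HP rats, against 11.11, 11.98, 11.55 and 10.53 in control rats, so that the control values enclosed all the HP values. The difference of 0.07 (SE 0.27) had a 95% interval of -0.53 to 0.68 and was -0.18 without control rat 4. It was called higher by rank products only without control rat 2 (0.30, FDR 0.0211) or control rat 3 (0.16, FDR 0.0391). C9, the subunit that lines the pore, differed by 0.05 (SE 0.04).

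**Figure D2:**
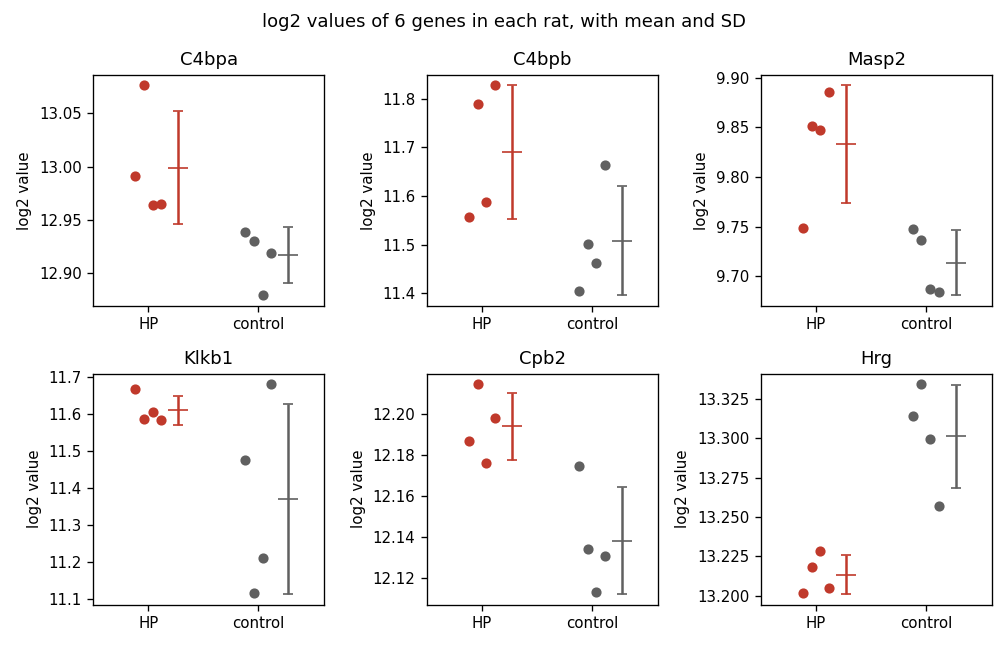
Each panel gives the log2 value of a gene in each rat (points), with HP diet-fed rats at the left, control rats at the right, and the mean and SD of 4 rats beside them; the vertical axes do not start at 0. C4bpa, Masp2, Cpb2 and Hrg show no overlap, C4bpb and Klkb1 overlap through control rat 4, and the SD of Klkb1 is 0.04 in HP rats and 0.26 in control rats.

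Among the coagulation genes the contact route held the largest difference. Klkb1, whose product activates factor XII and releases bradykinin, had 11.67, 11.59, 11.61 and 11.59 in HP rats, against 11.48, 11.12, 11.21 and 11.68 in control rats. The HP rats lay close together and within the range of the control rats, of which rats 2 and 3 were low. The means were 11.61 ± 0.04 in HP diet-fed rats and 11.37 ± 0.26 in control rats (SD, n = 4 each). The difference of 0.24 (SE 0.11) had an FDR of 0.0451 by rank products and an adjusted p of 0.407 by limma. It was 0.16 without control rat 2 (FDR 0.173), 0.19 without control rat 3 (FDR 0.127) and 0.34 without control rat 4 (FDR 0.00477). The FDR was 0.0444 without control rat 1 and between 0.136 and 0.148 without an HP rat. F12, factor XII itself, differed by 0.05 (SE 0.05). F5, the cofactor of factor X, differed by -0.08 (SE 0.05), and Pros1, protein S, by 0.07 (SE 0.06).

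The 2 measured fibrinogen chains did not differ beyond the spread between rats. Fga had 12.52, 12.40, 12.35 and 12.26 in HP rats, against 12.62, 12.62, 12.44 and 12.04 in control rats. Control rat 4 was the lowest of all 8 and the other 3 control rats lay above HP rats 2 to 4. The difference of -0.05 (SE 0.12) had a 95% interval of -0.33 to 0.24. Fgb had 13.87, 13.89, 13.83 and 13.85 in HP rats, against 13.90, 13.83, 13.90 and 13.80 in control rats, a difference of 0.00 (SE 0.03) with an interval of -0.07 to 0.07. Serpind1 (heparin cofactor II) and Serping1 (C1 inhibitor), the measured serpins, both differed by -0.01.

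Of the genes that govern the dissolving of fibrin, 2 had lower means and 1 a higher mean on the HP diet. Hrg, a plasma glycoprotein that binds heparin and plasminogen, had 13.20, 13.22, 13.23 and 13.20 in HP rats, against 13.31, 13.33, 13.30 and 13.26 in control rats. Every HP rat was below every control rat. The difference of -0.09 (SE 0.03) had the smallest limma p of the 21 genes, 0.0113 unadjusted and 0.317 adjusted, and an FDR of 0.0822. Plg, plasminogen, had 13.15, 13.14, 13.15 and 13.13 in HP rats, against 13.23, 13.24, 13.25 and 13.14 in control rats. Control rat 4 alone lay among the HP rats. Its difference of -0.07 (SE 0.03) had an unadjusted p of 0.0449 and an adjusted p of 0.387 by limma. Cpb2, a carboxypeptidase that slows fibrin breakdown, had 12.19, 12.21, 12.18 and 12.20 in HP rats, against 12.17, 12.13, 12.11 and 12.13 in control rats. Its difference was 0.06 (SE 0.03), with an adjusted p of 0.467 and an FDR of 0.0971. After quantile normalization of the arrays the difference of Hrg was -0.06, with overlapping groups, and that of Plg was -0.04.

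**Figure D3:**
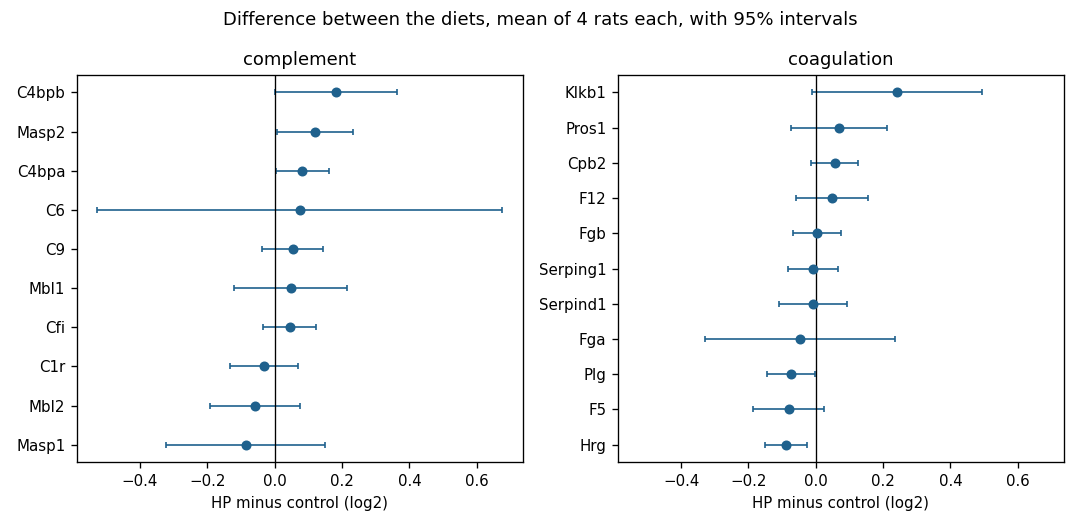
Points give the mean of 4 HP diet-fed rats minus the mean of 4 control rats (horizontal axis, log2) and bars the 95% interval from limma for each measured gene (vertical axis), complement at the left and coagulation at the right. Except for C6, no interval reaches below -0.328 or above 0.493, and most cross 0.

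Over the list as a whole most differences were small, and so was the spread between rats; no test compared the list with the array. The absolute difference was under 0.1 in 18 of the 21 genes (85.7%), against 52.7% of the probe sets tested and 67.5% of the 480 tested with a mean of at least 11. No gene of the list reached 0.5, and 75 of the 4155 probe sets did. The median absolute difference was 0.058, beside 0.094 over the probe sets tested and 0.069 over those with a mean of at least 11. The median SD between rats was 0.04 in HP diet-fed and 0.07 in control rats for the list. For the probe sets tested it was 0.11 in HP diet-fed and 0.14 in control rats. For those with a mean of at least 11 it was 0.06 in HP diet-fed and 0.08 in control rats. The median difference was 0.05 over the 10 complement genes, with 7 positive, and -0.01 over the 11 coagulation genes, with 5 positive. It was -0.02 over all probe sets tested, with 43.5% positive. Over those with a mean of at least 11 it was 0.0038, with 52.1% positive. The sign of the coagulation median was positive, 0.01, after centring each array. The SD between rats was smaller in HP diet-fed than in control rats for 6 of 10 complement and 10 of 11 coagulation genes. The same held for 67.9% of the probe sets tested and 71.0% of those with a mean of at least 11.

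**Figure D4:**
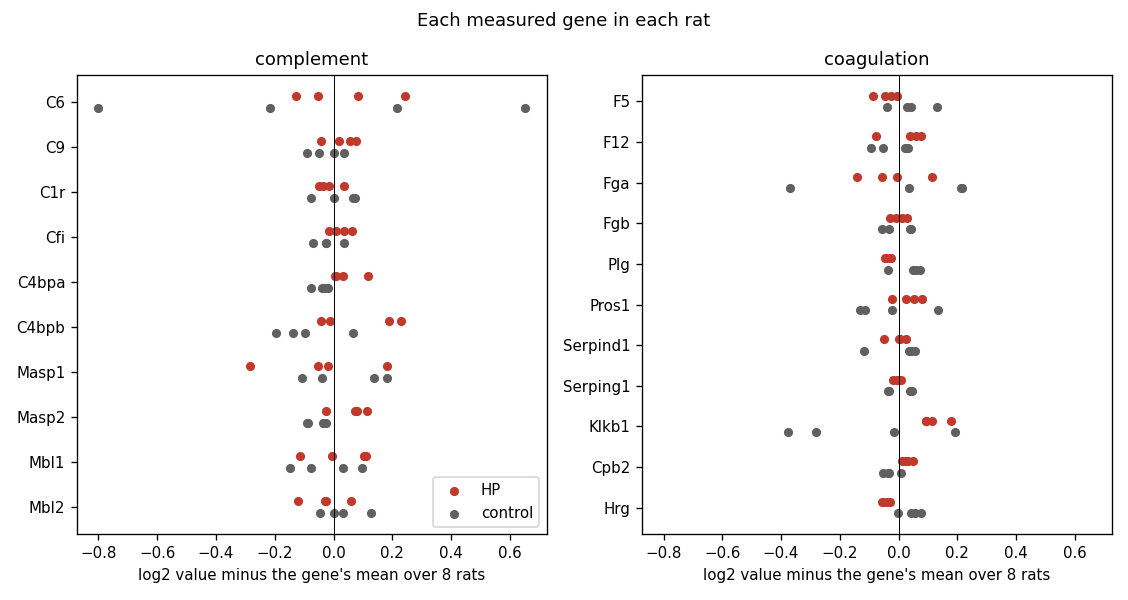
Each point is a rat's log2 value minus the gene's mean over the 8 rats (horizontal axis), with HP diet-fed rats above control rats in each row, complement at the left and coagulation at the right. C6, Fga and Klkb1 show the widest control values, and most other genes stay within 0.2 of their mean.

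HP rat 2 was the highest of the 8 rats in 5 of the 21 genes, control rat 3 the lowest in 5 and control rat 4 the lowest in 8. The mean deviation of the complement genes from their own means was 0.03, 0.04, -0.03 and 0.05 in HP rats 1 to 4, against -0.02, 0.05, -0.01 and -0.10 in control rats 1 to 4. HP rat 3 and control rat 2 lay on the other side of their groups. For the coagulation genes it was 0.02, 0.01, 0.00 and -0.01 in HP rats, against 0.04, 0.00, -0.03 and -0.03 in control rats, and the control values enclosed the HP values.

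**Figure D5:**
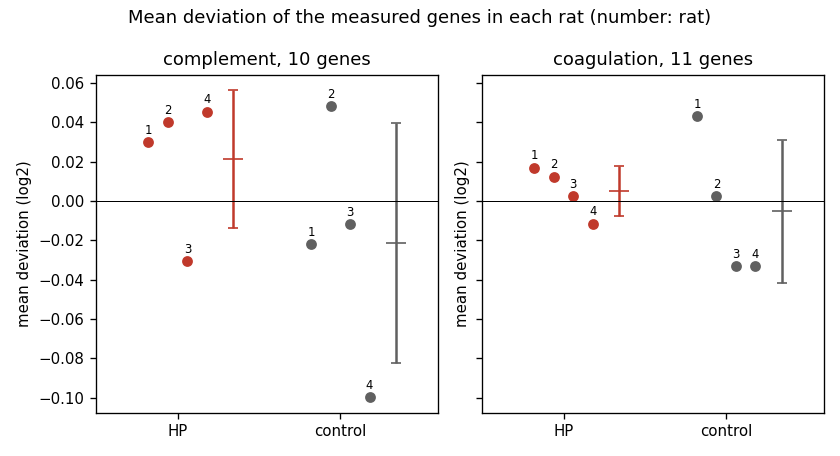
The vertical axis gives the mean deviation (log2) of the 10 complement genes (left) and the 11 coagulation genes (right) in each rat, with HP diet-fed rats left of control rats, rat numbers above the points, and mean and SD of 4 rats as bars. Both pairs overlap, and control rat 4 is lowest for complement, at -0.10.

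Other genes of the 2 systems were mostly not measured. Of 28 further complement genes 6 were, and rank products called 1 of them higher and 0 lower. Among the probe sets tested it called 8.4% higher and 12.1% lower, and 3.1% were higher without overlap. This was Cr1l, a rodent membrane regulator that takes apart C3 convertases, with 9.98, 10.0005, 9.96 and 10.03 in HP rats, against 9.92, 9.89, 9.75 and 9.77 in control rats. Its groups did not overlap, and the difference was 0.16 (SE 0.05, FDR 0.0356, limma adjusted p = 0.332). Of 31 further coagulation and fibrinolysis genes 8 were measured, with 1 called higher and 0 lower. This was A2m, a broad protease inhibitor and an acute phase protein in rats, with 7.45, 7.17, 7.66 and 7.22 in HP rats, against 6.28, 7.27, 6.91 and 7.10 in control rats. Control rat 1 was far below the others, and the difference was 0.49 (SE 0.21, FDR 0.00239, limma adjusted p = 0.388). Of 11 genes of vitamin K use and secretion, 3 were measured and 0 were called by rank products, and the larger differences were -0.09 for Mcfd2, which carries factors V and VIII out of the endoplasmic reticulum, and 0.07 for Vkorc1, which recycles vitamin K.

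In whole liver, fewer cells of a type and less RNA per cell cannot be told apart. Calls in the marker lists stand beside the 8.4% higher and 12.1% lower that rank products called among the probe sets tested. Of those probe sets 4.07% were lower without overlap. The hepatocyte markers, 9 of 10 named on the array and 4 with a span of at least 0.05, had a summed level (log2 of the sum) of 16.79 to 16.82 in HP diet-fed rats and 16.81 to 16.84 in control rats. Of these 4, 3 had lower means on the HP diet, the median was -0.05, and rank products called 1 lower, Cps1 of the urea cycle (-0.27, FDR 0.0173), whose groups did not overlap. The Kupffer cell and macrophage markers, of which C1qa and C1qc are complement genes, all 9 measured of 13, had lower means on the HP diet, with a median of -0.15, 1 called lower by rank products (Cd5l), and summed levels of 12.70 to 12.83 in HP diet-fed rats and 12.72 to 12.95 in control rats. The sinusoidal endothelium markers, 4 measured of 10, had a median of 0.19, 2 called higher (Stab2 and Kdr), and summed levels of 11.94 to 12.07 in HP diet-fed rats and 11.81 to 11.95 in control rats. The part of these markers in the differences above was not tested. Stellate cell markers, 6 measured of 9, had 0 calls, with summed levels of 11.61 to 11.81 in HP diet-fed rats and 11.57 to 11.84 in control rats. Of red cell markers only Hbb was measured, and it was called higher by 0.24 (FDR 0.0297). Bile duct, platelet and neutrophil markers were nearly constant, and since the array gives no detection call no marker can be read as absent. The 8 arrays correlated with one another at 0.968 to 0.992.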

How the data were processed

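Liver RNA of 8 rats was hybridised to 1 Affymetrix GeneChip rat array each, 4 on the HP diet and 4 on the control diet. The deposited values are log2 intensities, which the authors obtained by summarising the probes of each set with FARMS; R 2.13.1 is named in the submitters' processing notes. How the arrays were normalized to one another was not given in the sources used, and no step was added. The values ran from 5.35 to 14.53, and since an array gives no read depth, precision is limited by the number of arrays.

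Of 31042 probe sets other than 57 control probe sets, 20826 had 1 symbol in the platform annotation, 436 several and 9780 none. Probe sets with several symbols were not used for genes. Differences were tested by rank products, the test of the study's methods, with 1000 permutations within arrays and an FDR under 0.05. The ranks ran over all 31042 probe sets and the 57 control probe sets, which were left out of the counts. Differences were also tested by limma 3.58.1 (R 4.3.3, trend and robust, two-sided) over the 4155 probe sets with a span of at least 0.05, or 13.4%. Benjamini-Hochberg adjustment was made over all 4155. The permutations are random, so genes near the limit can cross it. Both tests were run on simulated data with added changes larger than any difference in the list. False calls of rank products were not counted there, so those runs do not bear on the calls given here. Each SE and each 95% interval is from limma, which moderates a probe set's spread by that of the others. They can therefore be narrower or wider than the SDs printed beside them would give. Rats are the replicates. The limma p-values weigh a difference against the spread between these 8 rats, moderated over the 4155 probe sets. The rank products FDR comes from permuting values within each array and does not measure that spread.

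Values per rat were given for genes of the list that a test called, whose diets did not overlap or whose unadjusted limma p was under 0.05, and for Fga and Fgb; the nearly constant central proteins (C3, F2, Fgg and Serpinc1) are given by their means. Of the other lists, the genes named are those that rank products called, or otherwise the 2 with the largest differences. C6 is given in full as the gene with the largest span, which was chosen after its values were seen. The members and lists were chosen with earlier results of these data known. Alternatives were other normalizations, filters, probe set rules and models, and leaving out each rat.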

Additional observations from a re-analysis of the deposited data

Results flagged for a closer look

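In Serpind1, heparin cofactor II, control rat 1 stood apart from the other control rats, at 12.44 against 12.59 to 12.61. Its gap to the nearest of them was 0.891 of the range of the group, above Dixon's limit for 4 samples. Such a gap arises by chance in about 1 of 20 groups, and 42 groups were examined (the HP and the control rats of 21 genes). The difference of Serpind1 between the diets was -0.01 (SE 0.04).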

How the results depend on the processing

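No gene of the list was called by limma under any setting, with the smallest adjusted p among them 0.126, with array weights. The count called higher by rank products, 2, was 0 with the dimmest 25% of probe sets left out and 0 when only probe sets with a span of at least 0.05 were ranked, and 0 to 3 when 1 rat was left out. Over the dimmest-25% setting the FDR was 0.0675 for C4bpb and 0.0690 for Klkb1, and over spanning probe sets alone 0.721 and 0.596. The count without overlap was 3 higher, and 1 with a span of at least 0.2. It was 2 after quantile normalization, without the span filter, and with each array centred on the median of its spanning probe sets. The count lower was 1, and 0 after quantile normalization and 0 with a span of at least 0.2. With 1 rat left out the counts were 3 to 5 higher and 1 to 2 lower. Groups without overlap stay so when a rat is left out, so these counts could not fall. The median over complement genes lay between 0.02 and 0.08 and that over coagulation genes between -0.02 and 0.02 with 1 rat left out. Without the span filter, which lets in the nearly constant genes, they were 9.33e-05 and 3.83e-05. C6 reversed, to -0.20 with array weights and to -0.18 without control rat 4, and lay at most at 0.30 with 1 rat left out. Fga reversed to 4.48e-06 without the span filter, which takes its nearly constant probe set, and to 0.0172 and 0.0170 without control rats 1 and 2. Fgb reversed to -0.00084, -0.0068, -0.0076 and -0.0154 without HP rats 1 and 2 and control rats 2 and 4, and lay at most at 0.0175 with 1 rat left out. Apart from the counts and reversals given, the cause of the changes was not tested.

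The labels number the rats 1 to 4 on both diets but do not say that a number pairs them. Deviations of same-numbered rats correlated at 0.48, 0.03, -0.12 and -0.20, with 1 of 4 above 0.1, and not every rat correlated best with its own number. With the replicate number as a block, limma called 0 genes of the list (smallest adjusted p 0.354) and had 2 higher and 1 lower at an unadjusted p under 0.05.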

Other observations

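Genes of the acute phase and of the liver's regulators were also read, and their counts stand beside the 8.4% higher and 12.1% lower that rank products called among the probe sets tested. Of 20 acute phase genes 10 were measured, with 2 called higher by rank products and 1 lower. Hamp, the iron hormone hepcidin, had 10.82, 10.35, 10.44 and 10.59 in HP rats, against 10.71, 9.49, 9.29 and 10.45 in control rats, a difference of 0.56 (SE 0.30, FDR 0.0063), and A2m, given above, was the other. Orm1, an acute phase glycoprotein, had 11.49, 11.38, 11.32 and 11.32 in HP rats, against 11.74, 11.83, 11.70 and 11.07 in control rats, and was called lower by rank products at -0.21 (SE 0.15, FDR 0.0377). Both groups overlapped in each of these genes, and limma called 0 of the 10.

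Of 18 liver regulators 12 were measured, with 3 called higher and 1 lower by rank products and 0 by limma. Each was read at 1 probe set. Hnf4a, a liver regulator with 3 probe sets, was not called at the one read, at -0.10, while the paper lists Hnf4a as higher. Il6r, the interleukin 6 receptor, was called lower, with 9.12, 9.42, 9.72 and 9.28 in HP rats, against 9.53, 9.85, 9.81 and 9.49 in control rats (-0.28, SE 0.14, FDR 0.0196). Il6st, its signalling partner, was called higher, with 11.46, 11.30, 11.52 and 11.36 in HP rats, against 11.71, 11.04, 10.98 and 11.07 in control rats (0.21, SE 0.15, FDR 0.0422). Nr1h4, the bile acid receptor, was called higher by 0.19 (SE 0.10, FDR 0.0418). Onecut1, a hepatocyte transcription factor, was called higher by 1.01 (SE 0.92, FDR 0.000632), with 11.45, 11.07, 10.81 and 9.45 in HP rats, against 11.91, 7.90, 8.06 and 10.86 in control rats. Control rats 2 and 3, low in Onecut1, were also the lowest of the 8 in Klkb1 and Hamp; these genes were set side by side after their values were seen.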
